A study of Mus musculus with 10 samples.

Results

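The inflammatory cytokine genes Il1a, Il1b, Il1rn, Tnf, Il10, Il15, Il18, Il33 and Il34, were compared between cardiomyocytes of NLC-MI mice and of TgGRK5-MI mice on day 4 after myocardial infarction (MI). They were chosen by name, as the rows of the count table whose Ensembl identifier carries one of these symbols in GENCODE M21, and all 9 members were found among the 51789 genes of the table. NLC-MI libraries came from non-transgenic littermate controls. TgGRK5-MI libraries came from mice that overexpress the kinase GRK5 in cardiomyocytes, and the promoter of the transgene is not given in the sources used here. The study describes MI by permanent occlusion of the left coronary artery in adult mice, and both groups had MI, so no uninjured heart was compared here. The study used both sexes, but Y-linked counts exceeded those of Xist in all 10 of these libraries. Each group had 5 libraries, 1 per mouse, with 7968779 to 23381527 counts in NLC-MI and 9114469 to 22231424 counts in TgGRK5-MI. Grk5 itself was at 60.4 ± 9.50 CPM (counts scaled to a common library size) in NLC-MI against 1222 ± 472 in TgGRK5-MI (SD, n = 5 each), and the groups did not overlap.

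The IL-1 family is built around IL-1α and IL-1β, which act through the receptor IL1R1 and its partner IL1RAP, while the antagonist encoded by Il1rn occupies the same receptor without signaling. IL-18 and IL-33 are further members with receptors of their own. TNF acts through the receptors TNFR1 and TNFR2, IL-10 restrains inflammatory gene expression, IL-15 is presented on its receptor IL15Rα to T and NK cells, and IL-34 is a ligand of the macrophage receptor CSF1R. After MI these cytokines are known to come from injured tissue, from recruited leukocytes and from stromal cells.

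Cardiomyocyte markers were abundant in every library, with 51324 to 131579 CPM summed over 8 markers (among them Tnnt2, Myh6 and Actc1) in NLC-MI and 56106 to 112290 CPM in TgGRK5-MI. Of these markers, 0 were higher and 1 was lower in TgGRK5-MI at an unadjusted p under 0.05 with edgeR. The lower marker was the calcium channel gene Ryr2 (log2 fold change -0.93), where 1.77% of all genes tested were higher and 2.08% lower. Markers of other cells were present too, and 0 of the 8 fibroblast markers and 0 of the 4 neutrophil markers tested passed that threshold. The summed level of 8 fibroblast markers ran from 4031 to 24098 CPM in NLC-MI and from 4198 to 24766 CPM in TgGRK5-MI, and that of 12 monocyte and macrophage markers from 762 to 2216 CPM in NLC-MI and from 1204 to 2505 CPM in TgGRK5-MI. Summed neutrophil markers lay between 9.88 and 25.0 CPM in NLC-MI and between 12.7 and 30.7 CPM in TgGRK5-MI, and Ly6g, which defines these cells, had at most 1 count in any library. Summed T and NK cell markers lay between 1.64 and 4.67 CPM in NLC-MI and between 2.04 and 4.06 CPM in TgGRK5-MI, with at most 4 counts of Cd3e in a library. Summed endothelial markers lay between 607 and 1287 CPM in NLC-MI and between 591 and 1356 CPM in TgGRK5-MI. In such bulk RNA, fewer cells of a type and less RNA per cell cannot be told apart. The p-values below set the difference between the groups against the spread between these mice.

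Of the members tested, Il15 had the largest fold change between the groups, with a lower mean in TgGRK5-MI, but the difference was not past the threshold across all genes. For each of the other members the gap between the group means was smaller than the spread between libraries. Of the 9 members, 7 passed the filter on low counts, and 0 of them had an adjusted p under 0.10 in edgeR's quasi-likelihood test, where 0.0788% of the 15232 genes tested did (0.0525% as higher and 0.0263% as lower in TgGRK5-MI). At an unadjusted p under 0.05 from edgeR, 1 member, Il15, was lower (2.08% of all genes tested were) and 0 were higher (1.77% of all genes tested were), so that 1 of 7 stood past this threshold against 3.85% of all genes tested. The groups overlapped for every one of the 9 members, and 1.00% of all genes tested had groups that did not overlap. The log2 fold change was below 0 for 3 of the 7 members tested, against 49.8% of all genes tested, and its median was 0.023 over the members and 0.0013 over all genes tested.

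**Figure D1:**
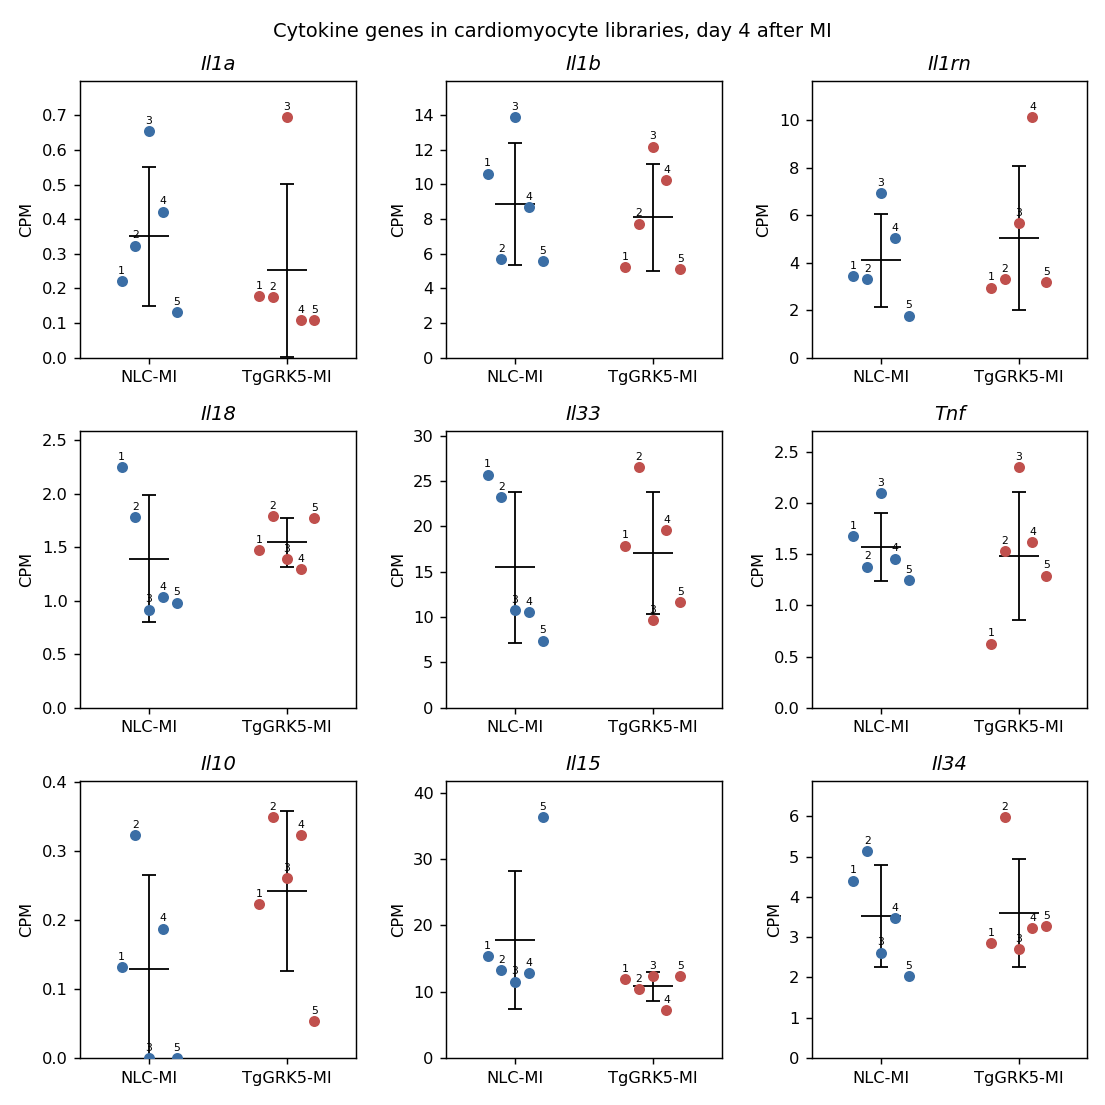
CPM (vertical axes, linear from 0) of the 9 cytokine genes in each library of NLC-MI (blue) and TgGRK5-MI (red). Numbers give the replicate, and the black marks give the mean and SD of 5 libraries. The groups overlap in every panel, and NLC-MI replicate 5 stands apart for Il15 at 36.3 CPM.

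Levels of different genes can be compared only per length, as CPM per kilobase of annotated exon. On that scale Il15, Il33 and Il1b were the most abundant members, with means over the 10 libraries of 6.35 ± 3.54, 5.65 ± 2.49 and 4.45 ± 1.65 CPM per kilobase (SD, n = 10). Their order was not fixed, since Il15 lay above Il33 in 5 of 10 libraries and Il33 above Il1b in 6 of 10. Il1b lay above Il34 in 10 of 10 libraries. Il34 followed at 1.82 ± 0.630 CPM per kilobase, Il18 at 1.42 ± 0.417, Tnf at 0.930 ± 0.288 and Il1rn at 0.825 ± 0.445 (SD, n = 10). Il34 exceeded Il18 in 9, Il18 exceeded Tnf in 8 and Tnf exceeded Il1rn in 7 of the 10 libraries. The exons of Il1rn add up to 5535 bases over all its annotated transcripts, the longest of the 9 genes, and a shorter transcript in these cells would give a higher level per length. Il1a and Il10 were lowest, at 0.153 ± 0.112 and 0.142 ± 0.102 CPM per kilobase (SD, n = 10).

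Il1b (ENSMUSG00000027398, chromosome 2 of GRCm38, 129364570 to 129371139, reverse strand) encodes IL-1β, a cytokine that is released after cleavage by caspase-1. Il1b was at 10.6, 5.67, 13.9, 8.68 and 5.56 CPM in NLC-MI replicates 1 to 5 and at 5.23, 7.72, 12.2, 10.2 and 5.10 CPM in TgGRK5-MI replicates 1 to 5. Both groups held libraries near 5 CPM and libraries above 10 CPM, and the third replicate was the highest of each group. For Il1b the log2 fold change was -0.13 (standard error 0.32, 95% interval from -0.83 to 0.57, adjusted p = 1.00 with edgeR).

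Il1a (ENSMUSG00000027399, chromosome 2, 129299610 to 129309972, reverse strand) encodes IL-1α, which cells can release on injury. Its reads were few, with 5, 8, 5, 9 and 2 counts in the NLC-MI libraries and 4, 4, 8, 1 and 2 counts in the TgGRK5-MI libraries, so that it did not pass the filter. These counts were close to the floor of 3 counts, the most that a count of 0 allows, which corresponded to 0.121 to 0.393 CPM over the 10 libraries. The difference of mean log2 CPM was -0.43 (two-sided exact permutation test, p = 0.349). In addition, 222 exon bases of Il1a are shared with Gm14023 on the opposite strand, a transcript with 183 counts over all libraries against 48 for Il1a. The TruSeq RNA v2 kit does not mark strand, so reads from the shared bases cannot be told apart by strand.

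Il1rn (ENSMUSG00000026981, chromosome 2, 24336853 to 24351494, forward strand) encodes the receptor antagonist. The NLC-MI libraries were at 3.44, 3.32, 6.94, 5.02 and 1.77 CPM of Il1rn, and the TgGRK5-MI libraries were at 2.95, 3.32, 5.65, 10.1 and 3.17 CPM. TgGRK5-MI replicate 4 was the highest and NLC-MI replicate 5 the lowest of all libraries. The highest libraries, TgGRK5-MI replicate 4, NLC-MI replicate 3 and TgGRK5-MI replicate 3, were also those with the fewest counts (9114469, 7968779 and 12833652). NLC-MI replicate 3 and TgGRK5-MI replicate 3 were also the highest for Il1a, Il1b and Tnf, while NLC-MI replicate 3 was the lowest for Il18. The part of depth in these levels was not tested. The log2 fold change of Il1rn was 0.29 (standard error 0.42, 95% interval from -0.62 to 1.21, adjusted p = 1.00 with edgeR), and without TgGRK5-MI replicate 4 it was -0.11.

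Il18 (ENSMUSG00000039217, chromosome 9, 50554827 to 50581840, forward strand) encodes a further substrate of caspase-1. It was at 2.25, 1.78, 0.916, 1.03 and 0.982 CPM in NLC-MI and at 1.48, 1.79, 1.39, 1.29 and 1.77 CPM in TgGRK5-MI. All TgGRK5-MI libraries lay inside the range of the NLC-MI libraries. Between the groups, Il18 had a log2 fold change of 0.12 (standard error 0.30, 95% interval from -0.52 to 0.77, adjusted p = 1.00 with edgeR).

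Il33 (ENSMUSG00000024810, chromosome 19, 29925114 to 29960718, forward strand) encodes a nuclear cytokine of stromal and endothelial cells that is released as an alarm signal. Its levels were 25.7, 23.2, 10.7, 10.5 and 7.40 CPM in NLC-MI and 17.9, 26.5, 9.65, 19.6 and 11.7 CPM in TgGRK5-MI. The spread within each group was wider than the gap between the group means of 15.5 ± 8.33 and 17.1 ± 6.73 CPM (SD, n = 5 each). In edgeR, Il33 had a log2 fold change of 0.13 (standard error 0.37, 95% interval from -0.68 to 0.95, adjusted p = 1.00 with edgeR).

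The order of the libraries by Il33 was similar to their order by fibroblast markers. The 3 libraries with the highest summed fibroblast markers were TgGRK5-MI replicate 2 (24766 CPM), NLC-MI replicate 2 (24098 CPM) and NLC-MI replicate 1 (23571 CPM), and these were also the 3 libraries with the highest Il33. NLC-MI replicate 5 (4031 CPM) and TgGRK5-MI replicate 3 (4198 CPM) had the lowest fibroblast markers and the lowest Il33. Set against these markers in the same library, Il33 was at 14.3 ± 4.09 per 10000 CPM of markers in NLC-MI and 16.1 ± 5.19 in TgGRK5-MI (SD, n = 5 each; log2 difference 0.16, two-sided exact permutation test, p = 0.579). Il1rn and the summed neutrophil markers had their highest values in the same library, TgGRK5-MI replicate 4, and their lowest in NLC-MI replicate 5. Most of that sum came from Csf3r and Cxcr2, at 9.37 ± 3.52 and 4.72 ± 5.45 CPM in NLC-MI (SD, n = 5 each). Ly6g, Retnlg and Mpo did not pass the filter. Other marker sums shared part of this pattern. Summed endothelial markers were also highest in TgGRK5-MI replicate 4 (1356 CPM) but lowest in TgGRK5-MI replicate 1 (591 CPM). Summed mast cell markers were also lowest in NLC-MI replicate 5 (5.82 CPM) but highest in NLC-MI replicate 3 (21.2 CPM). Nearly all of that sum was Kit, at 14.4 ± 5.90 CPM in NLC-MI and 13.3 ± 4.94 in TgGRK5-MI (SD, n = 5 each). Cpa3, Tpsb2 and Mcpt4 did not pass the filter, so the sum is mainly a level of Kit. These marker lists were set beside the members after the values were seen, and their part in the levels of the cytokines was not tested.

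**Figure D2:**
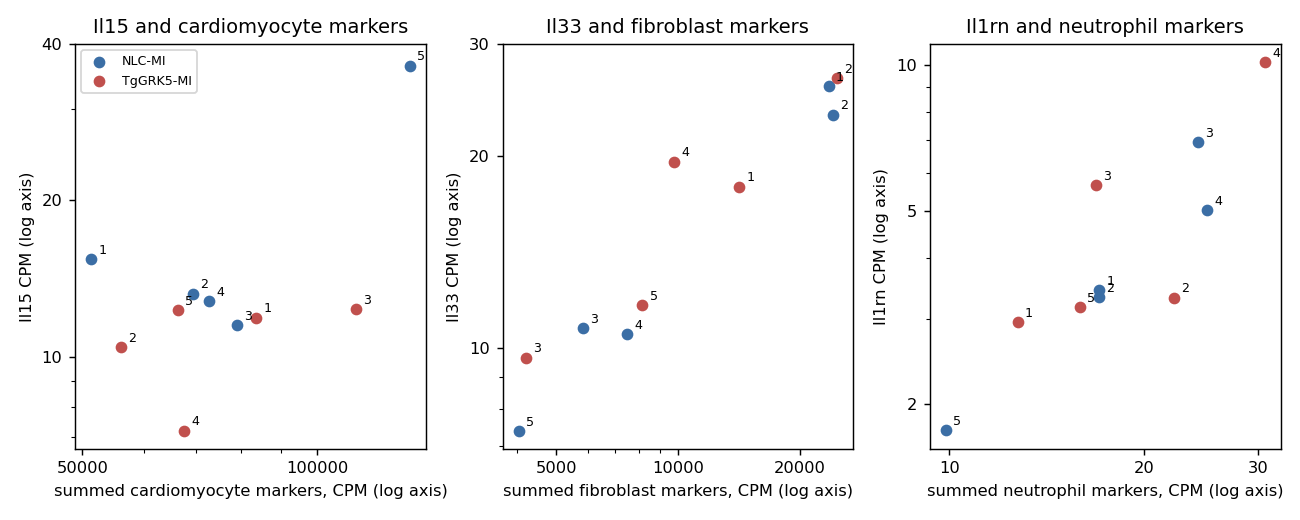
Il15, Il33 and Il1rn (vertical axes, CPM, log scale) against the summed CPM of cardiomyocyte, fibroblast and neutrophil markers (horizontal axes, log scale) in the 10 libraries, NLC-MI in blue and TgGRK5-MI in red, numbered by replicate. NLC-MI replicate 5 has the highest Il15 and the highest cardiomyocyte markers (131579 CPM), and the 3 libraries with fibroblast markers of 23571 CPM or more have the highest Il33.

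Tnf (ENSMUSG00000024401, chromosome 17, 35199381 to 35202007, reverse strand) encodes TNF. It had from 14 to 38 counts per library, at 1.67, 1.38, 2.09, 1.45 and 1.24 CPM in NLC-MI and 0.626, 1.53, 2.35, 1.62 and 1.29 CPM in TgGRK5-MI. The TgGRK5-MI group held both the highest and the lowest library. Tnf had a log2 fold change of -0.09 (standard error 0.33, 95% interval from -0.81 to 0.62, adjusted p = 1.00 with edgeR).

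Il10 (ENSMUSG00000016529, chromosome 1, 131019845 to 131024974, forward strand) had 3, 8, 0, 4 and 0 counts in the NLC-MI libraries and 5, 8, 3, 3 and 1 counts in the TgGRK5-MI libraries. It encodes IL-10, an anti-inflammatory cytokine. NLC-MI replicates 3 and 5 had 0 counts, which allows up to 0.393 and 0.196 CPM at their depth (counting error only), more than the 0.132 CPM read in NLC-MI replicate 1. Il10 did not pass the filter, and its difference of mean log2 CPM was 0.67 (two-sided exact permutation test, p = 0.190).

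Il15 (ENSMUSG00000031712, chromosome 8, 82331632 to 82403222, reverse strand) encodes a cytokine that maintains NK cells and memory T cells. The NLC-MI libraries were at 15.4, 13.2, 11.5, 12.8 and 36.3 CPM of Il15, and the TgGRK5-MI libraries were at 11.9, 10.4, 12.3, 7.22 and 12.3 CPM. All TgGRK5-MI libraries lay below 4 of the 5 NLC-MI libraries, and 3 of them lay above NLC-MI replicate 3. The log2 fold change was -0.72 (standard error 0.31, 95% interval from -1.40 to -0.03, unadjusted p = 0.0415 and adjusted p = 1.00 with edgeR), and Il15 ranked 501 by p among the genes tested. The study named Il15 from these same libraries, so that its direction here is not independent evidence. NLC-MI replicate 5 carried much of the difference, and its removal left a log2 fold change of -0.30 (unadjusted p = 0.150 with edgeR).

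NLC-MI replicate 5 also had the highest cardiomyocyte markers, with a sum of 131579 CPM, and the rest of its group lay from 51324 to 78881 CPM. TgGRK5-MI replicate 3 had the next highest, at 112290 CPM, with Il15 at 12.3 CPM. Set against cardiomyocyte markers in the same library, Il15 was at 3.00, 1.91, 1.46, 1.76 and 2.76 per 10000 CPM of markers in NLC-MI and at 1.42, 1.86, 1.10, 1.07 and 1.85 in TgGRK5-MI. On this scale, chosen after the data were seen, NLC-MI replicate 5 no longer stood apart, since NLC-MI replicate 1 was higher. The log2 difference was -0.56 (two-sided exact permutation test, p = 0.0873).

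Il34 (ENSMUSG00000031750, chromosome 8, 110741829 to 110805924, reverse strand) encodes the alternative ligand of CSF1R. It was at 4.40, 5.14, 2.62, 3.47 and 2.03 CPM in NLC-MI and at 2.86, 5.98, 2.69, 3.23 and 3.28 CPM in TgGRK5-MI. Apart from TgGRK5-MI replicate 2, the TgGRK5-MI libraries were close to each other and inside the range of NLC-MI. The log2 fold change of Il34 was 0.02 (standard error 0.31, 95% interval from -0.65 to 0.69, adjusted p = 1.00 with edgeR).

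**Figure D3:**
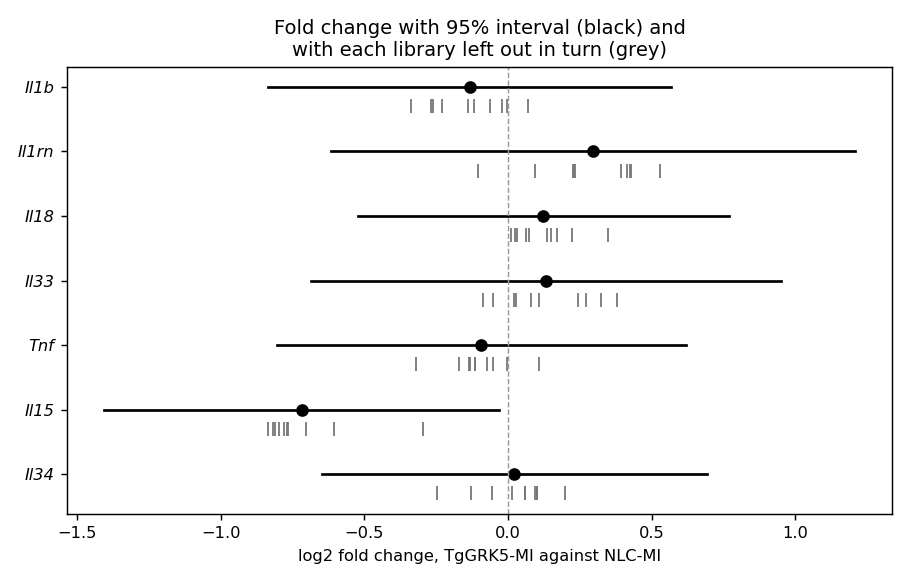
Log2 fold change of TgGRK5-MI against NLC-MI (horizontal axis) for the 7 cytokine genes that passed the filter, with the 95% interval from edgeR in black and the values with each of the 10 libraries left out in turn as grey ticks. The interval of Il15 alone lies below 0 (-1.40 to -0.03), and its tick nearest 0 is the fit without NLC-MI replicate 5 (-0.30).

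Several of these cytokines act with or against a partner. Per length, Il1b lay above its antagonist Il1rn in all 10 libraries, with means of 4.66 ± 1.84 against 0.740 ± 0.354 CPM per kilobase in NLC-MI and 4.24 ± 1.63 against 0.911 ± 0.550 in TgGRK5-MI (SD, n = 5 each). Il18 lay below Il18bp, the gene of its soluble decoy, in all 10 libraries, at 1.35 ± 0.575 against 5.52 ± 1.64 CPM per kilobase in NLC-MI (SD, n = 5), and the ratio of Il18 to Il18bp per length ran from 0.107 to 0.462 in NLC-MI and from 0.161 to 0.344 in TgGRK5-MI. Il34 lay below Csf1, the other ligand gene of CSF1R, in all 10 libraries. Il15 lay above Il15ra in 5 of 5 NLC-MI libraries and in 3 of 5 TgGRK5-MI libraries on this scale, with means of 7.90 ± 4.61 against 4.05 ± 1.22 and of 4.79 ± 0.959 against 4.01 ± 0.885 CPM per kilobase (SD, n = 5 each). This order depends on the summed exon lengths, 2261 bases for Il15 and 4446 for Il15ra. Without them the NLC-MI means were 17.9 ± 10.4 and 18.0 ± 5.43 CPM (SD, n = 5 each). Likewise, Il1b and Il1rn were at 10.2 and 10.1 CPM in TgGRK5-MI replicate 4. A shorter transcript of Il15ra or Il1rn in these cells would give that gene a higher level per length.

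The groups were compared by the difference of log2 CPM between the genes of a pair within each library, in which the lengths of the genes cancel between the groups, and whose sign says nothing of the level of one gene against the other. For Il1b minus Il1rn it was 1.14 ± 0.42 in NLC-MI and 0.75 ± 0.46 in TgGRK5-MI, with TgGRK5-MI replicate 4 the lowest at 0.015 (SD, n = 5 each). For Il15 minus Il15ra it was -0.10 ± 0.58 in NLC-MI and -0.72 ± 0.34 in TgGRK5-MI (SD, n = 5 each), a gap larger than the SD of either group, although the groups overlapped. It was -3.52 ± 0.79 and -3.49 ± 0.45 for Il18 minus Il18bp, and -4.51 ± 0.65 and -4.38 ± 0.49 for Il34 minus Csf1, in NLC-MI and TgGRK5-MI (SD, n = 5 each). The two-sided exact permutation test gave p = 0.214 for Il1b and Il1rn, p = 0.968 for Il18 and Il18bp, p = 0.111 for Il15 and Il15ra and p = 0.738 for Il34 and Csf1. The lowest of these was 0.429 after Benjamini-Hochberg adjustment over the 4 pairs (exact permutation test), and none of the 4 passed the threshold.

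**Figure D4:**
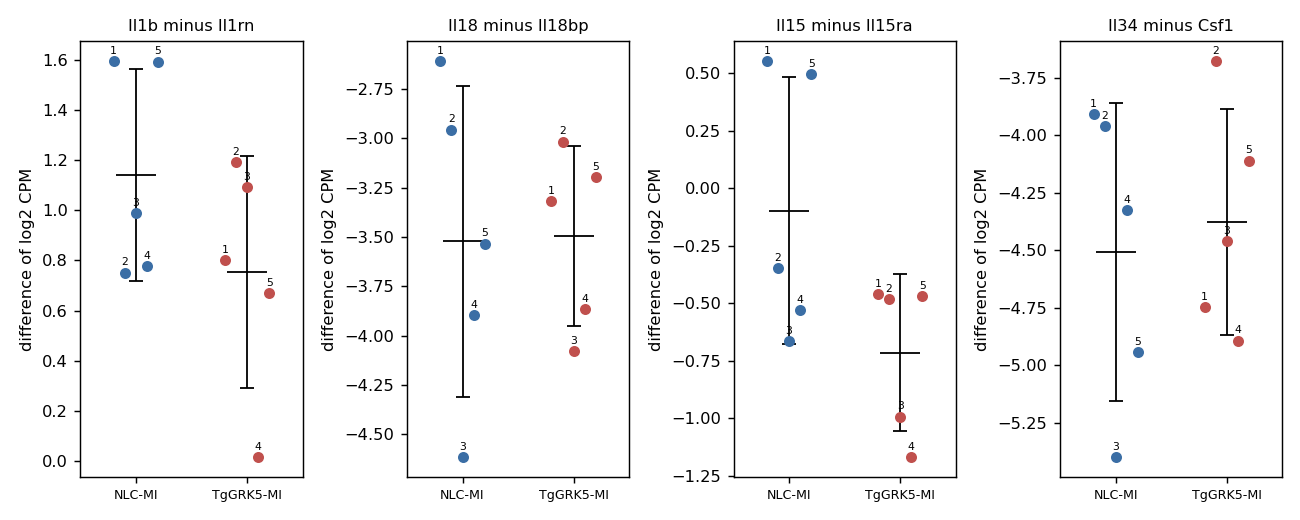
Difference of log2 CPM within each library (vertical axes) for Il1b minus Il1rn, Il18 minus Il18bp, Il15 minus Il15ra and Il34 minus Csf1, NLC-MI in blue and TgGRK5-MI in red, numbered by replicate, with mean and SD of 5 libraries in black. CPM are not corrected for gene length, so only the groups can be compared, and these overlap in every panel.

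None of the receptors and decoys of these cytokines differed between the groups past the threshold. Of 19 such genes, 18 passed the filter. An unadjusted p under 0.05 with edgeR was found for 0 of them, against 3.85% of all genes tested. Their median log2 fold change was 0.15, and 2 of the 18 were below 0, against 49.8% of all genes tested. The 12 monocyte and macrophage markers, which share Csf1r with this list, had a median of 0.20 with 0 below 0. Their part in the receptor levels was not tested. Il1r1, the signaling receptor of IL-1, was at 42.5 ± 19.2 (NLC-MI) against 46.8 ± 14.4 CPM (TgGRK5-MI), and its partner Il1rap at 7.85 ± 2.46 and 9.92 ± 2.20 CPM (SD, n = 5 each). The decoy Il1r2 and the IL-33 receptor Il1rl1 had few reads. They were at 1.08 ± 0.569 and 0.832 ± 0.200 CPM in NLC-MI against 1.20 ± 0.328 and 0.854 ± 0.479 in TgGRK5-MI (SD, n = 5 each). The TNF receptor Tnfrsf1a was at 91.8 ± 17.4 (NLC-MI) against 94.8 ± 14.9 CPM (TgGRK5-MI), and Tnfrsf1b at 37.3 ± 18.8 and 42.3 ± 15.0 CPM (SD, n = 5 each). Among the IL-10 receptor chains, Il10rb was at 122.4 ± 28.5 (NLC-MI) against 141.9 ± 36.4 CPM (TgGRK5-MI) and Il10ra at 14.5 ± 8.70 and 15.8 ± 8.94 CPM (SD, n = 5 each). Il15ra was nearly equal in the groups, at 18.0 ± 5.43 and 17.8 ± 3.94 CPM (SD, n = 5 each; log2 fold change -0.01, 95% interval from -0.51 to 0.49). Of the chains with which cells respond to IL-15, Il2rb had 1 to 21 counts per NLC-MI library and 0 to 11 per TgGRK5-MI library and did not pass the filter, while Il2rg was at 31.0 ± 13.2 (NLC-MI) against 38.7 ± 17.7 CPM (TgGRK5-MI) (SD, n = 5 each). Csf1r, the receptor of IL-34, was at 97.8 ± 54.7 (NLC-MI) against 113.6 ± 43.5 CPM (TgGRK5-MI) (SD, n = 5 each). The receptor chains of IL-18, Il18r1 and Il18rap, had few reads as well. They were at 1.30 ± 0.530 and 0.659 ± 0.348 CPM in NLC-MI against 1.83 ± 1.23 and 0.751 ± 0.317 in TgGRK5-MI (SD, n = 5 each).

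Of the 25 genes for processing and signaling of these cytokines, 25 passed the filter, with a median log2 fold change of -0.013. At an unadjusted p under 0.05 with edgeR, 1 was higher (1.77% of all genes tested were) and 0 were lower (2.08% were). The gene past that threshold was Pycard, which encodes ASC, the adaptor through which inflammasomes activate caspase-1 for the cleavage of IL-1β and IL-18. Pycard was at 14.4, 13.6, 11.0, 10.3 and 13.5 CPM in NLC-MI and at 16.0, 20.6, 22.1, 17.9 and 22.3 CPM in TgGRK5-MI. The groups did not overlap for Pycard, with TgGRK5-MI higher throughout, and 1.00% of all genes tested had groups that did not overlap. The log2 fold change of Pycard was 0.65 (standard error 0.16, unadjusted p = 0.00154 and adjusted p = 0.492 with edgeR), and DESeq2 gave an adjusted p of 0.0593, the lowest of 18 alternatives that ran up to 1.00. For the kinase gene Jak1 of this list the groups did not overlap either, in the other direction. The lowest NLC-MI library was at 172.4 CPM and the highest TgGRK5-MI library at 172.2 CPM (log2 fold change -0.16, unadjusted p = 0.200 with edgeR). Among the other inflammasome genes of the list, the log2 fold change was 0.11 for the sensor Nlrp3 (95% interval from -0.54 to 0.76). It was -0.09 for Casp1 (-0.76 to 0.59), 0.14 for Casp4 (-0.51 to 0.80) and 0.02 for the pore gene Gsdmd (-0.78 to 0.82). The 0.65 of Pycard lay inside the intervals of Nlrp3, Casp4 and Gsdmd and above that of Casp1. A change as large as that of Pycard was therefore not excluded for Nlrp3, Casp4 and Gsdmd. Monocyte and macrophage markers had log2 fold changes above 0 for 12 of 12 genes, where 49.8% of all genes tested were below 0. Of these markers, 0 had an unadjusted p under 0.05 with edgeR, against 3.85% of all genes tested. Their median log2 fold change was 0.20, and their part in the level of Pycard was not tested.

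Among 20 target genes of IL-1 and TNF, 20 passed the filter, with a median log2 fold change of -0.026. At an unadjusted p under 0.05 with edgeR, 0 were higher (1.77% of all genes tested were) and 1 was lower (2.08% were). The lower gene was Socs3, a feedback inhibitor of cytokine receptors, at 38.7 ± 12.7 (NLC-MI) against 25.7 ± 5.86 CPM (TgGRK5-MI) (SD, n = 5 each; log2 fold change -0.59, standard error 0.24, adjusted p = 1.00 with edgeR). The groups overlapped for Socs3. The feedback genes Nfkbia and Tnfaip3 had log2 fold changes of -0.11 and -0.13, the adhesion genes Icam1 and Vcam1 of 0.21 and 0.52, and the chemokine genes Ccl2 and Cxcl1 of 0.03 and -0.50, all with an unadjusted p above 0.05.

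Of 33 other cytokines of these families, 30 were matched in the table and 12 passed the filter, with a median log2 fold change of -0.033. At an unadjusted p under 0.05 with edgeR, 1 was higher (1.77% of all genes tested were) and 0 were lower (2.08% were). The higher gene was Tnfsf13, which encodes the TNF family ligand APRIL. Tnfsf13 was at 2.07, 2.39, 1.57, 1.88 and 2.16 CPM in NLC-MI and at 3.44, 3.36, 2.35, 4.20 and 2.58 CPM in TgGRK5-MI. A single pair of libraries kept the groups from separating, TgGRK5-MI replicate 3 at 2.35 CPM and NLC-MI replicate 2 at 2.39 CPM. The log2 fold change of Tnfsf13 was 0.64 (standard error 0.22, unadjusted p = 0.0144 and adjusted p = 1.00 with edgeR). Il6 was at 2.77 ± 1.43 (NLC-MI) against 2.38 ± 0.305 CPM (TgGRK5-MI) (SD, n = 5 each), and Il20 had 0 counts in every library.

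The interferon response list, given because Il15 is known as an interferon-responsive gene, had 30 genes tested and a median log2 fold change of -0.054. At an unadjusted p under 0.05 with edgeR, 0 were higher (1.77% of all genes tested were) and 2 were lower (2.08% were). The guanylate-binding protein gene Gbp6 fell past the adjusted threshold, from 37.3 ± 7.44 to 9.80 ± 1.73 CPM (SD, n = 5 each; log2 fold change -1.93, adjusted p = 0.00239 with edgeR). The other was Iigp1, an immunity-related GTPase gene, at 60.3, 50.3, 65.3, 25.6 and 83.6 CPM in NLC-MI and at 34.7, 36.4, 37.5, 31.2 and 34.7 CPM in TgGRK5-MI (log2 fold change -0.71, adjusted p = 1.00 with edgeR). NLC-MI replicate 5, the highest library for Il15, was also the highest for Iigp1 and for Gbp6 (47.5 CPM). It was not the highest for the interferon-induced genes Irf7 and Ifit1, which were at 20.8 and 14.1 CPM there and at 63.8 and 28.0 CPM in NLC-MI replicate 1.

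**Figure D5:**
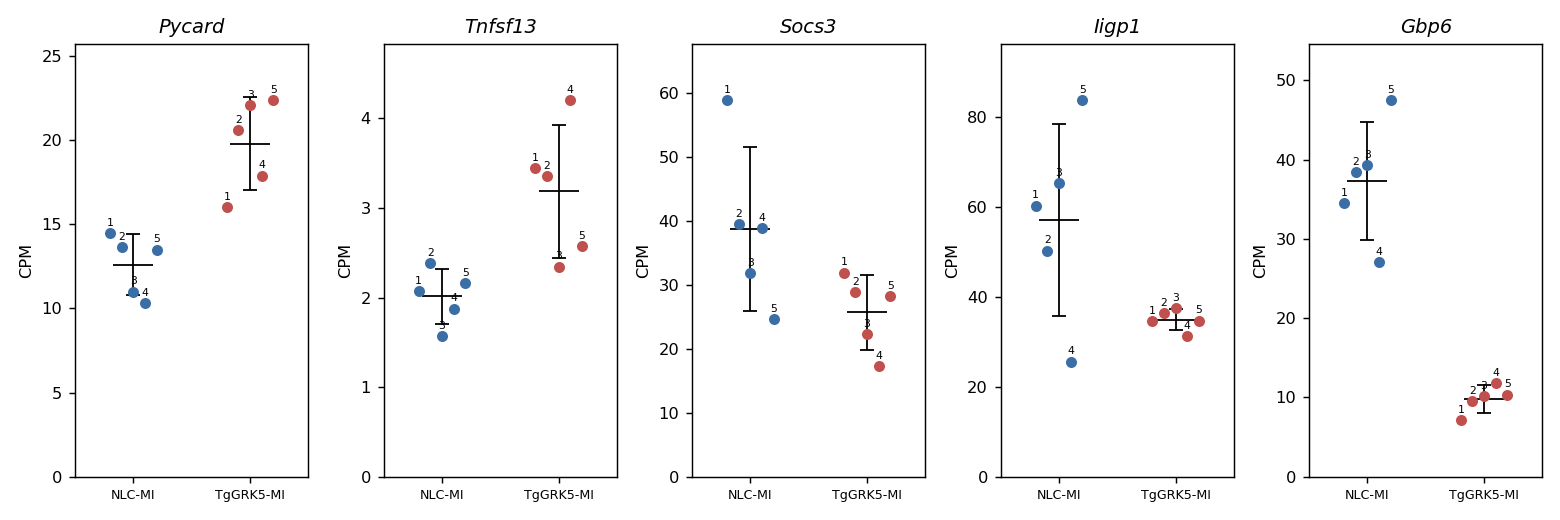
CPM (vertical axes, linear from 0) in each library of the 5 genes of the cytokine, signaling, target and interferon lists with an unadjusted p under 0.05 in edgeR, NLC-MI in blue and TgGRK5-MI in red, numbered by replicate, with mean and SD of 5 libraries in black. Of all genes tested, 3.85% had such a p. The groups do not overlap for Pycard and Gbp6, and they overlap for Tnfsf13, Socs3 and Iigp1.

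For each member tested, the genes with the most similar pattern over the 10 libraries were found as those with the smallest root mean square difference of centred log2 CPM. For Il33 these were Ccdc80 (0.0885), Gpc6 (0.136) and Anpep (0.139), against an SD of 0.659 for Il33 itself. For Il1rn they were Clec4e (0.174), Bak1 (0.191) and Pfn1 (0.224), and for Il15 they were Ano10 (0.144), Slc25a26 (0.182) and Hopx (0.189). The closest were Dync2li1 (0.136) for Il18 and Irf8 (0.112) for Il34. Il1b and Tnf had no gene as close, with Lin37 (0.261) nearest to Il1b and Bcl6b (0.254) nearest to Tnf. These values describe the 10 libraries, which share their cell mixture and depth with every gene.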

How the data were processed

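RNA-seq counts of cardiomyocytes from 5 NLC-MI and 5 TgGRK5-MI mice were grouped by sample title. The deposited values are estimated counts per Ensembl gene, as whole numbers without normalization. The submitters' processing notes list Bowtie2, RSEM 1.2.31 (which splits ambiguous reads by estimation), DESeq2 and mm10, without roles, and the annotation and strand setting are not given in the sources used here. The TruSeq RNA v2 kit does not mark strand.

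Symbols, positions and exon lengths came from GENCODE M21 on GRCm38 (51596 of 51789 identifiers matched). Counts were compared in R 4.3.3 with edgeR 4.0.16 (TMM, filterByExpr, quasi-likelihood F test with legacy=FALSE, Benjamini-Hochberg over the 15232 genes that passed, of 28506 with a count). CPM values use TMM factors, and log2 CPM a prior count of 2. The standard error is the log2 fold change over the square root of F. Single values had the two-sided exact permutation test (smallest p 0.00794). Lists were described by counts and medians. Transcripts were compared by blastn 2.17.0 (at least 90% identity over 100 bases), which matched only Il1a, with Gm14023; on the opposite strand Il1b shares 25 exon bases with Il1bos, and Il34 22 and 75 with Gm15894 and Gm15895. No libraries of a group were equal within sampling noise.

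The members, lists and tests were chosen with earlier results of these data known. Genes named are the members, their receptors and partners, Grk5, list genes with an unadjusted p under 0.05 and, for each member, genes among the 3 of most similar pattern; other list and marker genes were named after their values were seen. Alternatives were RLE factors, library size alone, DESeq2 1.42.0, limma-voom (limma 3.58.1), a minimum of 10 counts per library, no filter, the replicate number as a block, a score of Xist against Y-linked genes (which separated no sexes), a prior count of 0.5 for the pairs, and each library left out. Ratios to marker sums were added after seeing the data. The fits were tested on simulated data.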

Additional observations from a re-analysis of the deposited data

Results flagged for a closer look

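Each group of 5 libraries was searched for a library that stands apart by Dixon's criterion, for the 9 cytokine genes and for Il18bp, Il15ra and Csf1, which makes 24 groups, of which chance marks about 1 in 20. This marked 4 values. NLC-MI replicate 5 was at 36.3 CPM for Il15, where the other NLC-MI libraries were at 11.5 to 15.4 CPM. TgGRK5-MI replicate 3 was at 0.695 CPM for Il1a, from 8 counts, where the other TgGRK5-MI libraries had 1 to 4 counts. TgGRK5-MI replicate 2 was at 5.98 CPM for Il34, and it was also the library with the highest fibroblast (24766 CPM) and monocyte and macrophage markers (2505 CPM). TgGRK5-MI replicate 3 was at 24.7 CPM for Il15ra, and it had the highest cardiomyocyte markers of its group (112290 CPM).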

How the results depend on the processing

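Genes higher at an adjusted p under 0.10 numbered 8, against 13 with library size alone, 42 with DESeq2, 4 with at least 10 counts in every library, 13 with no filter, 5 with the replicate block and 3 with the sex score; genes lower numbered 4, against 27 with DESeq2, 2 with limma-voom and 1 with the sex score. With a library left out they ran from 2 to 7 higher and from 1 to 3 lower. The cytokine gene lower at an unadjusted p under 0.05, Il15, was lost with limma-voom (0 genes) and ran from 0 to 1 with a library left out (0 without NLC-MI replicate 5 or TgGRK5-MI replicates 1, 2, 4 or 5). Its fold change stayed below 0 in 18 of 18 alternatives. With the sex score the sign turned for Il1b (0.31), Tnf (0.025), Il33 (-0.068) and Il34 (-0.16). With a library left out, the log2 fold change ran from -0.34 to 0.070 for Il1b, -0.11 to 0.53 for Il1rn, -0.32 to 0.11 for Tnf, -0.84 to -0.30 for Il15, 0.011 to 0.35 for Il18, -0.085 to 0.38 for Il33 and -0.25 to 0.20 for Il34. The difference of mean log2 CPM ran from -0.76 to -0.22 for Il1a and 0.45 to 0.93 for Il10. The balances ran from -0.50 to -0.20 for Il1b and Il1rn, -0.25 to 0.26 for Il18 and Il18bp, -0.76 to -0.45 for Il15 and Il15ra (exact permutation p = 0.0317 without NLC-MI replicate 3) and -0.093 to 0.28 for Il34 and Csf1. Of 125 alternative fold changes of members, 113 kept their direction and side of the threshold. The cause of these changes was not tested. Il18 had no value with at least 10 counts in every library. Same-numbered libraries correlated at 0.0717, 0.662, 0.381, -0.341 and 0.0848, with a mean of 0.172 against -0.0274 for libraries of other numbers. Only 1 library pair of 5 correlated best with its own number. So few correlations cannot decide whether the numbers pair the mice. With the replicate block Il15 was at -0.60 (edgeR, unadjusted p = 0.0382).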
